A study of Mus musculus with 20 samples.

Results

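The wide H3K27ac domains of Comma-Dβ cells were the 710 autosomal H3K27ac peaks that ran for 10 kb or more, of 60205 autosomal and 61496 deposited H3K27ac peaks in all. They were chosen by the measured width of the peak alone. Comma-Dβ is a mouse mammary epithelial cell line, here at passage 28, and its DMEM/F12 medium contained insulin (0.125 IU/mL), EGF (5 ng/mL), HEPES (10 mM) and fetal bovine serum (2%). The 20 chromatin samples formed 5 groups of 4: input, the transcription factor HEB, and the histone marks H3K4me3, H3K27ac and H3K27me3. All groups came from this 1 line in culture, and the labels name no treatment or genotype that differed between them. The deposited result was 1 peak list per antibody in mm10 coordinates, with no column per replicate. Replicate error and read depth are therefore unknown, no p-value is given, and each interval covers counting error only, with positions in 1 list treated as independent. The epithelial genes Krt8, Krt18, Epcam and Cdh1 and the basal keratin genes Krt5 and Krt14 had H3K27ac and H3K4me3 at a gene end. Epcam, Cdh1 and Krt5 also had H3K27me3 at a gene end. The basal factor gene Trp63 had neither mark at its ends and a domain of 13.4 kb inside it.

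H3K27ac is an acetyl mark on histone H3 laid down by the coactivators p300 and CBP at active promoters and enhancers, and long unbroken stretches of it are often called broad domains, stretch enhancers or super-enhancers. They are known to gather at the genes that give a cell type its character and at strongly transcribed genes. H3K4me3 marks the starts of transcribed genes, H3K27me3 is the repressive mark of Polycomb, and HEB, encoded by Tcf12, is an E protein that binds the letters CANNTG, the E-box, as a dimer.

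MicroRNA genes are among the features the widest domains span, and the mature products of those genes are shown because several domains held members of the same seed families. Sequences are from RefSeq, matched by name (40 of 41 miRNA genes in the domains had an entry), and capitals mark the seed, bases 2 to 8, which pairs with target RNAs.
let-7b-5p: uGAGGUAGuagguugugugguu
let-7c-5p: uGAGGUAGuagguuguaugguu
let-7e-5p: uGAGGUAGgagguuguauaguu
miR-125a-5p: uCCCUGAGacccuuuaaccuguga
miR-125b-5p: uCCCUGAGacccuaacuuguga
miR-27a-3p: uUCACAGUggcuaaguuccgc
miR-27b-3p: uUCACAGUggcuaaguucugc
miR-24-3p: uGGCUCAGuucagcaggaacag
miR-29a-3p: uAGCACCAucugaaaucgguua
miR-29b-3p: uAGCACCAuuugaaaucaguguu
miR-21a-5p: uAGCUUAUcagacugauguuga
miR-205-5p: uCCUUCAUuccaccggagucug

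The domains also held 7 gene starts at which an HEB site overlapped the 250 bases before the start. In all, 50 HEB sites overlapped such a window, 49 of them in some H3K27ac peak and 7 in the domains. Of all HEB sites in H3K27ac peaks, 104 of 762 (13.6%) lay in domains. Of the 7 starts, 5 are printed because they show the range of E-box content in these windows, from 4 E-boxes to none. Parts of an HEB site outside its window were not searched for E-boxes. The bases are from the RefSeq promoter table (GRCm38.p6), on the strand of the gene, and capitals mark every CANNTG, which reads the same on both strands.
Adcy7, chr8:88282742-88282991, plus strand: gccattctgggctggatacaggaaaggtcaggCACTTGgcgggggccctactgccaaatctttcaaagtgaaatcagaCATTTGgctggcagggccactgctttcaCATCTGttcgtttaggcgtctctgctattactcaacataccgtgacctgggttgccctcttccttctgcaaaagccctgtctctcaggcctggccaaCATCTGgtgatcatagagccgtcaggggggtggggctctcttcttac
Col16a1, chr4:130047590-130047839, plus strand: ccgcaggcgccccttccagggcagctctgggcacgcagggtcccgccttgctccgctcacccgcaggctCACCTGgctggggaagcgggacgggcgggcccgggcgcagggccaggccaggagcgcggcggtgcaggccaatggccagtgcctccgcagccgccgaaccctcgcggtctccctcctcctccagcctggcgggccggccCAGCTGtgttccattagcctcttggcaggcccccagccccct
H3f3b, chr11:116024505-116024754, minus strand: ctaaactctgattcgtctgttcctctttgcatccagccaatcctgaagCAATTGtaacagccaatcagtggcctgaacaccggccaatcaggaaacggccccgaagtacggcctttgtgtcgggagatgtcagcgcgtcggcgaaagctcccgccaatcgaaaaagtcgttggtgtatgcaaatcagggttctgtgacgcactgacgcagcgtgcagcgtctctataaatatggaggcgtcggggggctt
H1f5, chr13:21780626-21780875, minus strand: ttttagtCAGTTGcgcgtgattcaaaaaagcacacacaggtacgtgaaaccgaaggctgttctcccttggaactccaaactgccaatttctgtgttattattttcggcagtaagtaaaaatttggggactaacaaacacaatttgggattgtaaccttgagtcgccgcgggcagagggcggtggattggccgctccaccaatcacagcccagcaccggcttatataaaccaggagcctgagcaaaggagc
H1f3, chr13:23554782-23555031, plus strand: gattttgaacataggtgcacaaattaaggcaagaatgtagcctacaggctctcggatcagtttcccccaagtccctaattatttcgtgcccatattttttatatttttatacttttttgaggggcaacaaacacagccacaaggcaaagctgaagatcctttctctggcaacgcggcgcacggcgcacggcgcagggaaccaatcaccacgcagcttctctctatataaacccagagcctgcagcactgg

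The domains were 1.18% of autosomal H3K27ac peaks and held 9.12% of their base pairs, 10.8 of 118.2 Mb. Width chose the members and, with the fold enrichment from the same list, is given as description. The median width was 12.9 kb (interquartile range 11.2 to 16.1, highest 91.9), beside 1.33 kb for all autosomal peaks, and 92 domains ran for 20 kb or more and 29 for 30 kb or more. The authors' value per peak, taken here as fold enrichment over control, had a median of 5.52 in the domains (4.36 to 7.02), beside 2.39 for all autosomal peaks. Values at the limit were alike: the 86 domains within 500 bp above it had a median fold of 4.96, and the 128 peaks within 500 bp below it had 5.01. The narrowest member measured 10000 bp and the widest autosomal peak left out 9998 bp. Of all members, 705 had a −log10 q of 5 or more in the authors' list.

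Domains were spread unevenly over chromosomes. Chromosome 11 held 95 (2.23% of its H3K27ac peaks) and chromosome 19 held 29 (1.68%), whereas chromosome 18 held 5 (0.334%). Copy number and read depth by chromosome are unknown in this line, and their part in this spread was not tested. Domains less than 50 kb apart formed 92 runs with 214 members (30.1%). The runs with most domains had 5 each, both on chromosome 19: one over Actr1a, Sufu and Trim8 (46385566 to 46526637) and the other over Eef1g, Ahnak and Scgb1a1 (8972038 to 9083694). Sufu encodes an inhibitor of Hedgehog signalling, and Ahnak a very large scaffold protein of the cell cortex. Single genes could carry several domains, and Ahnak, Mrtfa, Nfib, Rad51b, Runx1, Septin9 and Vmp1 were among those with 4 each. In Runx1, a transcription factor gene of 225 kb, the 4 domains added up to 70.5 kb. The 4 domains that overlapped Vmp1, an autophagy gene of 100 kb, added up to 82 kb. Part of that length lay outside Vmp1, towards Tubd1 and Ptrh2.

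The widest domain covered 91.9 kb of Nfix (chromosome 8, 84709019 to 84800913), which encodes a nuclear factor I transcription factor, and lay wholly inside that gene. It held 3 HEB sites and 9 H3K4me3 peaks, which covered 23.6% of it. The second widest, 69.4 kb, lay over the start of Myh9 (chromosome 15, 77774422 to 77843783), the heavy chain of nonmuscle myosin IIA, and held no HEB site. The next, 61.8 kb on chromosome 19 (5792240 to 5854018), spanned an end of Frmd8 together with the abundant nuclear noncoding RNA genes Malat1 and Neat1, and held 1 HEB site.

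The 25 widest domains were all of 30.6 kb or more. Genes of the actin and focal adhesion list among them were Myh9, Cald1 (51.5 kb), an actin-binding regulator of contraction, Actn4 (46.9 kb), an actin crosslinker, and Lasp1 (33.4 kb), a focal adhesion adaptor. From the integrin list there was Itga3 (41.8 kb), the laminin-binding integrin alpha-3 subunit. Outside these lists, Septin9 (31.4 kb), a cytoskeletal GTPase, and Baiap2 (44.9 kb, shared with Aatk), which links membrane curvature to actin, were also among them. Transcription regulators were Nfix, Nfic (35.7 kb), Gata3 (30.6 kb), the luminal lineage factor, Zmiz1 (33.4 kb), Tnrc18 (33.9 kb), Sap30bp (31.6 kb) and Vgll4 (37.0 kb), a cofactor that competes with YAP for TEAD factors. The others lay at Niban2 with Lrsam1 (56.4 kb), Vmp1 with Tubd1 (49.4 kb), Mrpl33 with Rbks (44.2 kb), Fancc with Aopep (39.2 kb) and Lrp1 (33.4 kb), an endocytic receptor. Pmepa1 (32.3 kb), a TGF-beta-induced inhibitor of Smad signalling, Spns2 (31.3 kb) and Ctsd with Ifitm10 (31.1 kb) completed those at coding genes. A domain of 58.3 kb on chromosome 15 and one of 38.9 kb on chromosome 6 touched no protein-coding gene and are described with the microRNAs. Of these 25 domains, 24 held H3K4me3 and 6 held HEB (9 sites): Nfix, Nfic, Frmd8, Vgll4, Tnrc18 and Lrp1.

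**Figure D1:**
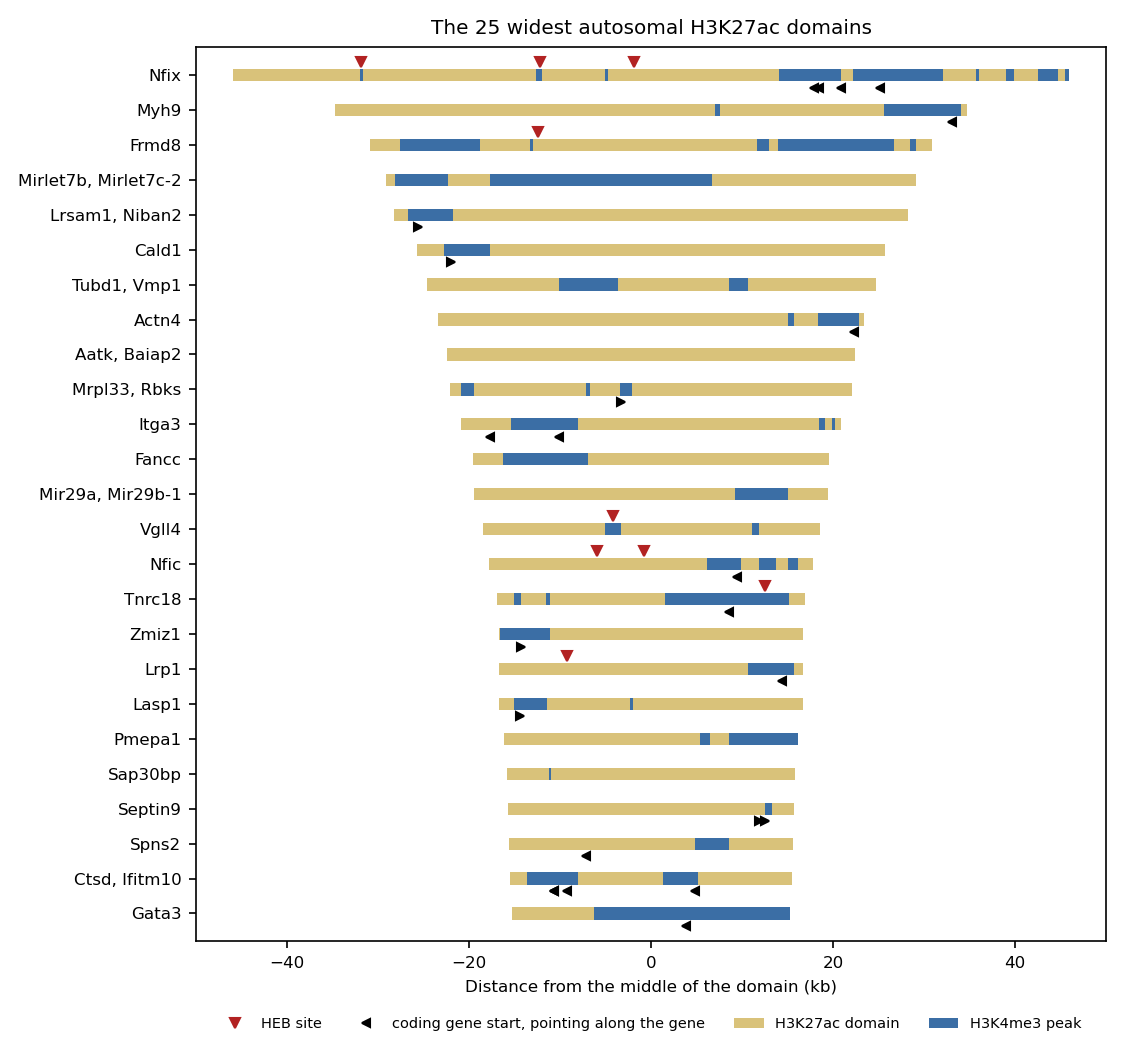
The 25 widest autosomal H3K27ac domains, centred on their middles (horizontal axis in kb), with H3K4me3 peaks as blue bars, HEB sites as red triangles and protein-coding gene starts with an entry in the promoter table as black arrowheads pointing along the gene. H3K4me3 fills a short stretch near one edge at Myh9, Cald1 and Actn4 and 70.5% of the Gata3 domain, and the Baiap2 domain has none.

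Relative to protein-coding genes, 351 domains (49.4%, Wilson 95% interval 45.8 to 53.1) held a gene end, meaning either boundary of a gene. Another 243 (34.2%) lay wholly inside a gene and 116 (16.3%) lay between genes, at a median of 47.2 kb from the nearest one. Of all autosomal H3K27ac peaks, 14.5% held a gene end, 49.2% were intragenic and 36.2% intergenic, and for peaks of 5 to 10 kb these shares were 31.4%, 42.5% and 26%. A long peak meets gene ends more easily than a short one, so these shares are not corrected for width. A gene end can be either boundary, so these classes do not separate promoters from distal regions. A coding start with a promoter entry lay in 293 of the 710 domains, so the domains were not distal regions alone.

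Where a domain held the start of a single protein-coding gene and no other gene end, it usually ran further after the start than before it. This held for 113 of 131 such domains (86.3%, Wilson interval 79.3 to 91.1), with a median of 1.82 kb (interquartile range 0.863 to 4.68) before the start and 10.9 kb (8.46 to 14.2) after it. Myh9 (67.8 kb of 69.4 after the start), Actn4 (45.7 of 46.9 kb), Lasp1 and Zmiz1 had this form. In peaks of 5 to 10 kb the share was 295 of 417 (70.7%, 66.2 to 74.9), and in peaks of 2 to 5 kb it was 71%. The interval of the wide domains did not overlap that of either narrower class. A wide peak meets another gene's end more easily, so this selection differs with width, and its part was not tested. Of the 131 domains, 29 ran past the far end of the gene, so the stretch after the start is not always gene body, and 71 began less than 2 kb before the start. With domains that also held other gene ends counted, the share was 135 of 165 (81.8%, 75.2 to 87). The narrower classes were not recounted that way. Strand was known only for the 79.6% of coding genes with a promoter entry.

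**Figure D2:**
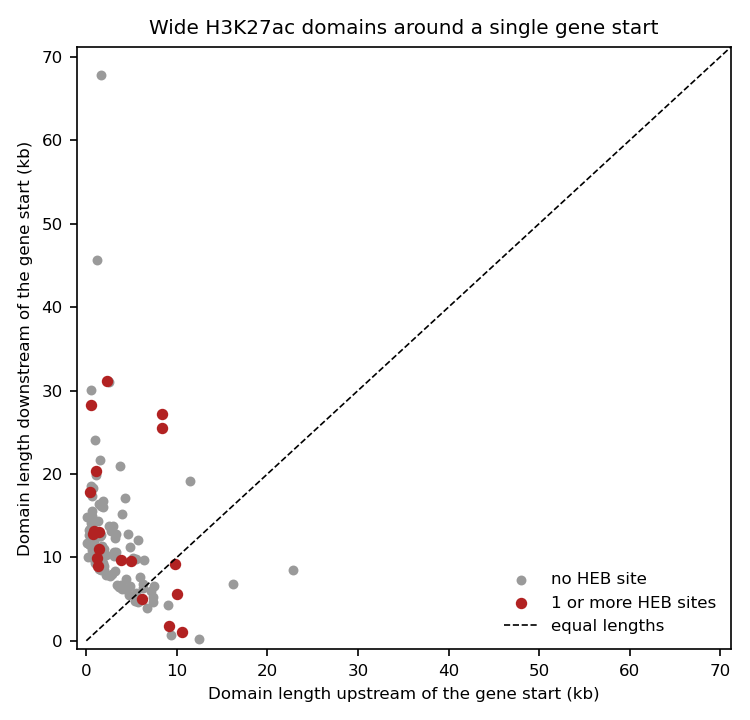
Length of the domain before the gene start (horizontal, kb) against its length after the start (vertical, kb) for 131 wide domains around a single protein-coding start, with the dashed line at equal lengths. Of these points, 113 lie above the line, and red points hold at least 1 HEB site.

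H3K4me3 was found in 496 domains (69.9%, Wilson interval 66.4 to 73.1), beside 21.8% of all autosomal H3K27ac peaks. By base pairs the difference was smaller: H3K4me3 covered 21.4% of domain sequence and 19.4% of the sequence of H3K27ac peaks under 10 kb. Among the domains 316 held 1 H3K4me3 peak, 142 held 2, 28 held 3, 5 held 4 and 5 held more. Where the mark was present it covered a median of 27.5% of the domain (interquartile range 15 to 44.2), and in 92 domains (13%) it covered 50% or more. H3K4me3 peaks in the domains were wider than those in narrower H3K27ac peaks (median 2.58 against 1.98 kb) and had a lower median fold (12.1 against 17.4). Of the 428 autosomal H3K4me3 peaks of 5 kb or more, 143 (33.4%) lay in a wide H3K27ac domain. H3K4me3 was present in 93.2% of domains with a gene end, in 48.1% of those inside a gene and in 44.8% of those between genes.

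The 214 domains without H3K4me3 had H3K27ac with no called promoter mark: 126 lay inside a gene, 64 between genes and 24 at a gene end. The widest were at Baiap2 and Aatk (44.9 kb), Sf3b3 (27.8 kb, a splicing factor gene, with 1 HEB site), and Timp3 (26.3 kb), an inhibitor of matrix metalloproteases. Inside genes they were in Cd44 (25 kb), the hyaluronan receptor, Kirrel (24.4 kb), Sipa1l3 (23.4 kb), Rad51b (22.6 kb) and Actn1 (21.4 kb, 1 HEB site). Between genes they were 53 kb from Rbpj (23.2 kb), the DNA-binding effector of Notch signalling, and 16.8 kb from Lif (21.9 kb, 2 HEB sites), a cytokine of the interleukin-6 family.

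Inside a domain, gene starts sat towards the edges, and H3K4me3 peak centres were close to an even spread. On a scale from 0 at an edge to 0.5 in the middle, where an even spread has a median of 0.25, the 464 coding starts in domains had a median of 0.186 and the H3K4me3 peak centres 0.234. In peaks of 5 to 10 kb these medians were 0.257 and 0.315. HEB sites had a median of 0.293 in the domains, further in than the H3K4me3 centres there, and of 0.287 in peaks of 5 to 10 kb, less far in than the H3K4me3 centres of those peaks.

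HEB sites were found in 91 of 710 domains (12.8%, Wilson interval 10.6 to 15.5), beside 1.23% of all autosomal H3K27ac peaks. Of these, 80 held 1 site, 9 held 2 and 2 held 3, in all 104 sites, or 11.9% of the 874 autosomal HEB sites (9.92 to 14.2). Per length the difference was smaller: domains had 9.65 sites per Mb (exact Poisson 95% interval 7.89 to 11.7) and narrower H3K27ac peaks 5.99 (5.53 to 6.47). Density did not set the wide domains apart from the next class. It was 3.91 sites per Mb in peaks under 1 kb, 4.7 at 1 to 2 kb, 6.23 at 2 to 5 kb and 8.28 (7.11 to 9.59) at 5 to 10 kb. At 10 to 20 kb it was 10 (7.96 to 12.5) and at 20 kb or more 8.53 (5.41 to 12.8), and these last 3 intervals overlap. Fold enrichment also moved with width in these classes, from a median of 1.99 to 6.05, and its part in the density was not tested.

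**Figure D3:**
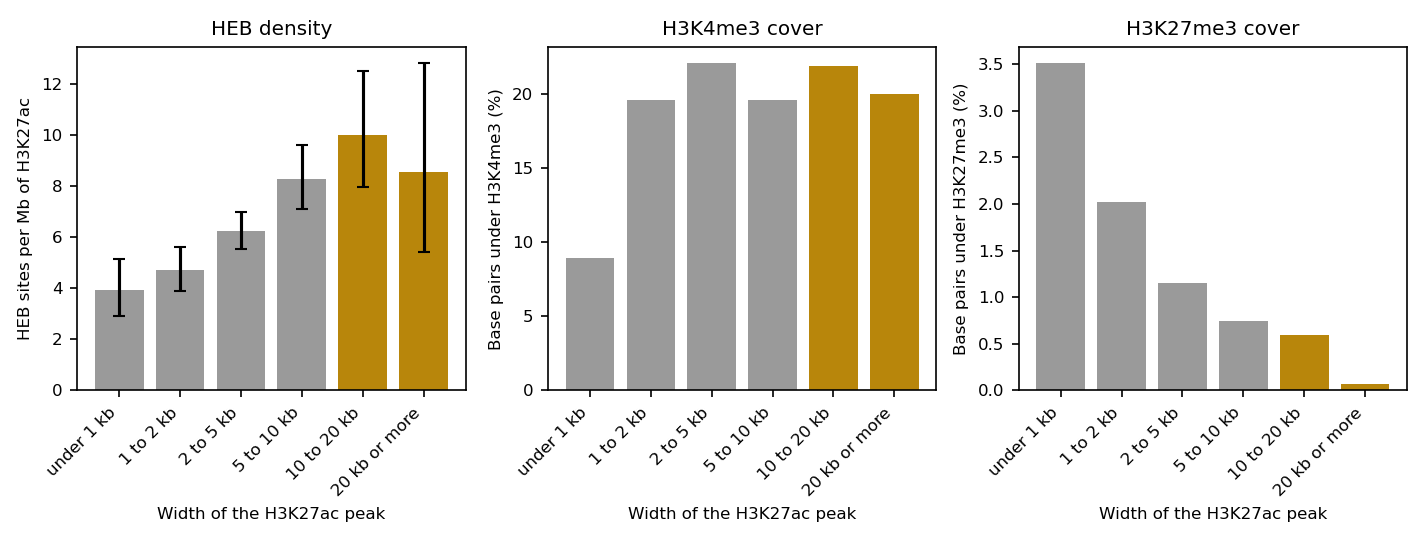
HEB sites per Mb with exact Poisson 95% intervals (left), share of base pairs under H3K4me3 (middle) and under H3K27me3 (right) in autosomal H3K27ac peaks by width, with wide domains in gold. HEB density is 8.28 per Mb at 5 to 10 kb and 10 at 10 to 20 kb, H3K4me3 cover lies between 19.6% and 22.1% in all classes from 1 kb up, and H3K27me3 cover falls from 3.51% to 0.0664%.

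HEB density was highest in domains away from genes. Domains between genes had 15.2 sites per Mb (9.85 to 22.5), those inside genes 9.68 (6.74 to 13.5) and those with a gene end 7.98 (5.8 to 10.7). Peaks of 5 to 10 kb showed the same order, at 15 (11.9 to 18.6), 6.1 and 5.88 per Mb. In the domains the intervals overlap, and in the narrower peaks the intergenic interval stands above the other two. One intergenic domain stands apart and bears on these values. It lies next to the first peak of chromosome 9 (3015243 to 3032936), 302 kb from the nearest coding gene. Its H3K27ac fold was low, 2.35, although its −log10 q was 356. It held 3 HEB sites and 7 H3K4me3 peaks, these with a fold of 2.51 at most, and H3K27me3 covered 45.9% of it. How uniquely reads map in this region was not tested. Without this domain the density between genes was 13.5 (8.48 to 20.5) and the density of all domains together 9.39.

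**Figure D4:**
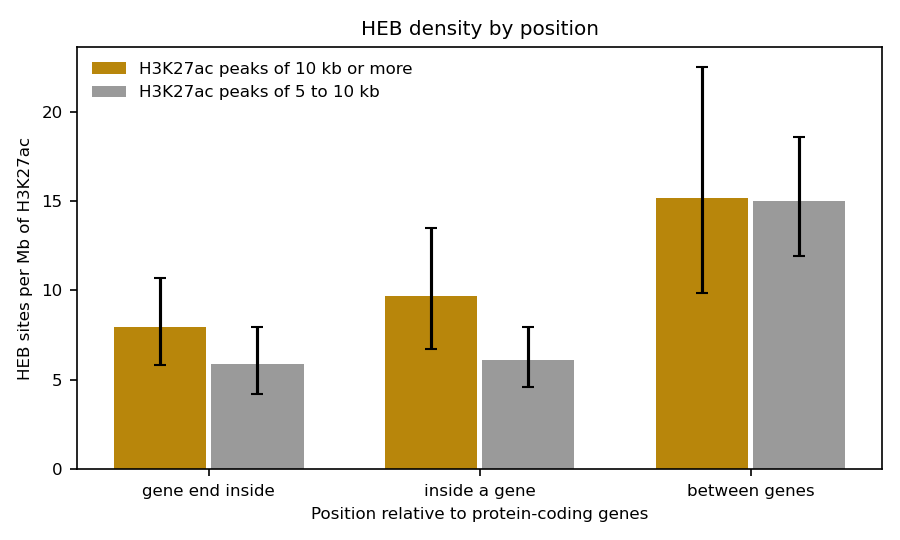
HEB sites per Mb of H3K27ac (vertical axis, with exact Poisson 95% intervals) in wide domains and in peaks of 5 to 10 kb, by position relative to protein-coding genes. Densities between genes are 15.2 and 15 per Mb, and the intervals of the wide domains overlap between positions.

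Of the 104 HEB sites in domains, 34 (32.7%, Wilson interval 24.4 to 42.2) overlapped H3K4me3, beside 145 of 658 (22%, 19 to 25.4) in narrower H3K27ac peaks. Those intervals overlap, and without the chromosome 9 domain the share was 31 of 101 (30.7%). Another 37 sites lay outside H3K4me3 in a domain that held it, at a median gap of 2.81 kb, and 33 lay in domains without it. HEB was held by 12.5% of domains with H3K4me3 (9.87 to 15.7) and 13.6% of those without (9.6 to 18.8), and these intervals overlap. Around single gene starts, 16 of 22 HEB sites lay after the start, beside 79.5% of the base pairs there.

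The 3 sites in Nfix lay at 84722851 to 84723240, 84742581 to 84742951 and 84752881 to 84753266, between 19.8 and 49.8 kb from a coding start. The first overlapped the start of the noncoding RNA gene G430095P16Rik and, like the second, H3K4me3. Nfic, a second nuclear factor I gene, held 2 sites, 6.74 and 11.4 kb from its H3K4me3. Domains with 2 sites and no H3K4me3 lay 16.8 kb from Lif, 21 kb from the thioredoxin gene Txn2, 129 kb from Haao and inside Notch2, a Notch receptor gene (chromosome 3, 98053202 to 98068641). The others with 2 sites were at Vasn and Coro7, in Lrig1, a negative regulator of EGF receptor family signalling, in Adcy7, an adenylyl cyclase, and at Col16a1, a collagen gene. The printed Adcy7 window lay wholly under a site of 461 bp and holds 4 E-boxes (among them CATCTG in 2 copies). The Col16a1 window lay wholly under a site of 555 bp and holds CACCTG and CAGCTG. This Col16a1 site overlapped H3K4me3, whereas the Adcy7 site lay 1.95 kb from the nearest H3K4me3 in its domain.

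Histone genes formed a group among the domains. Of 5 domains over histone genes, 4 held an HEB site, each on H3K4me3, and each at a gene start: H1f2 (16.7 kb domain), H1f3 (15.8 kb) and H1f5 (12.8 kb), which encode linker histones, and H3f3b (14.8 kb), which encodes the replacement histone H3.3. The fifth, at H2ac12 (12.8 kb), held none. Of all 351 domains with a gene end, 41 (11.7%) held HEB, and the histone group was singled out after its values were seen. The H1f2 and H1f3 windows hold no E-box and those of H1f5 and H3f3b hold 1 each, CAGTTG and CAATTG. All 4 hold the letters CCAAT or their complement ATTGG, 4 times in H3f3b, 3 in H1f5 and once each in H1f2 and H1f3, but so do the windows of Col16a1 and G430095P16Rik, once each, and this motif was chosen after the sequences were seen. Sites at the histone starts were wide, 678 to 1096 bp. Near-identical histone gene copies can share reads, so the assignment to single copies is uncertain.

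Across all coding starts in domains, E-boxes in the 250 bases before the start were not more frequent than at all autosomal starts. CANNTG was present at 57.3% of 464 starts (Wilson interval 52.8 to 61.7), at 54.6% of starts in any H3K27ac peak and at 62.6% of all 20084 autosomal starts. CAGCTG was present at 14%, 11.2% and 12.2%, and CAGGTG, on either strand, at 12.7%, 13.9% and 17.2%. CCAAT on either strand was present at 37.1% in domains and 35.3% at all starts. CAGCTG and CAGGTG are themselves forms of CANNTG, and some genes have more than 1 start. GC content, which bears on all such counts, had a median of 61.2% in the domain windows and 56% at all starts, and its part was not tested.

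Of 20661 autosomal protein-coding genes, 497 (2.41%) had a gene end in a domain and 682 (3.3%) overlapped one. Among the 9469 genes with an end in any H3K27ac peak the share was 5.25%. The lists below were chosen with earlier results of these data known, so their counts are a description.

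The actin cytoskeleton and focal adhesion list stood highest among lists of more than 4 genes, with 16 of 38 genes (42.1%). They included Myh9, Actn4, Lasp1 and Cald1 described above, the actin gene Actg1 (12.7 kb), the profilin gene Pfn1 (14.6 kb) and the tropomyosin genes Tpm1 (16 and 14.6 kb) and Tpm4 (14.3 kb, 1 HEB site). The adhesion genes Zyx (15.6 kb), Ilk (10.2 kb), Bcar1 (23.9 and 10.6 kb) and Tns3 (17.8, 13.9 and 11.5 kb, 2 HEB sites in all) were also there, with Ahnak, Myl12a and Myl12b. Domains lay inside Actn1, Pxn, Lims1 and Palld without reaching an end. In this list 35 of 38 genes had an end in some H3K27ac peak.

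Extracellular matrix genes followed, with 15 of 44 (34.1%). Collagen genes among them were Col1a1 (26.4 kb, 1 HEB site), Col1a2 (13.3 and 11.8 kb), Col6a1 (10.9 kb, 1 HEB site) and Col16a1 (13.4 kb, 2 HEB sites). Basement membrane genes were Lama5 (13.1 kb), Lamb1 (11.9 kb) and Hspg2 (11.6 and 11.5 kb, 1 HEB site in all). Matricellular and remodelling genes and protease inhibitor genes included Thbs1 (20.8 kb), Sparc (19.1 kb), Loxl1 (19.5 kb), Mmp14 (11.5 kb), Timp2 (15.4 and 10.9 kb), Timp3 and Ecm1 (10.4 kb). Integrin and hemidesmosome genes reached 3 of 17, with Itga3, Itgb5 (10.2 kb) and the tetraspanin gene Cd151 (14.4 kb), and a domain of 23.5 kb with 1 HEB site lay inside Plec, the cytolinker plectin.

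Among signalling lists, 4 of 20 YAP and TEAD genes had an end in a domain: Amotl2 (24.7 kb) and Ajuba (11.2 kb, 1 HEB site), which act upstream, Tead3 (13.9 kb), a DNA-binding partner, and Axl (15 kb), a receptor and known target. TGF-beta genes reached 4 of 22, among them the inhibitory Smad gene Smad7 (27.5 kb) and the corepressor gene Tgif1 (20.6 kb). EGF and receptor kinase genes reached 4 of 24, and 3 of these encode feedback inhibitors, Errfi1 (19.3 kb), Dusp4 (12.7 kb) and Dusp6 (10.1 kb), beside the receptor gene Epha2 (14.9 kb). Wnt genes reached 2 of 28, Wnt7b (11.9 kb) and Fzd7 (10.4 kb), and no Notch gene of 22 had an end in a domain, although domains lay inside Notch1 (1 HEB site) and Notch2.

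Transcription factor lists were led by nuclear factor I, where Nfic and Nfib had an end in a domain and Nfix held the widest one inside the gene, leaving 1 of the 4 genes with none. AP-1 genes reached 3 of 13, with Junb (19.2 kb, 1 HEB site), Fosl2 (19.2 kb) and Mafg (11.3 kb). Krüppel-like and ETS genes reached 3 of 21, Klf3 (20.4 kb), Klf5 (14.1 kb) and Klf10 (11.3 kb, 1 HEB site), and domains lay inside Ets1 (30.2 and 11.1 kb), Ehf, Etv6 and Elk3. Of 7 genes for E proteins and their Id inhibitors only Id3 had one (15.6 kb), with 4 H3K4me3 peaks and 1 HEB site 3.32 kb from its start. Id3 lacks a basic region and holds E proteins off DNA. Retinoid and nuclear receptor genes reached 2 of 16, Nr2f2 (16 kb) and Crabp2 (10.3 kb), and 4 of the 16 overlapped a domain at an end or inside the gene.

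Among lineage genes, basal identity genes reached 3 of 18, with Krt5 (10.7 kb), Sox9 (10.1 kb) and Vim (13.9 kb), and luminal genes 2 of 19, with Gata3 and Lif (15.4 kb). Vim was the only EMT gene of 11 with an end in a domain. The same held for Cnn2 (10.7 kb, 1 HEB site) among 16 myoepithelial contractile genes. Jup (15.9 kb), which encodes plakoglobin, was the only epithelial junction gene of 22 with an end in one. A domain of 10.1 kb with 1 HEB site and no H3K4me3 lay inside Cdh1, the E-cadherin gene. Domains also lay inside the junction genes Pkp1 (22.7 kb) and Ctnnd1 (11 kb), and 4 lay inside Mrtfa of the contractile list. Cell cycle genes reached 3 of 20, Ccnd1 (14.8 kb), Cdkn1b (11.1 kb) and Myc (10.7 kb), and cytosolic ribosomal protein genes 5 of 28, among them Rpl3, Rpl7, Rpl13a and Rpl19, at 10.4 to 13.7 kb. Of markers of other cell types, none of 14 immune, 12 endothelial, 10 adipocyte, 12 neuronal and 13 skeletal muscle genes had an end in a domain. Stromal fibroblast markers had 2 of 12, Col1a1 and Col1a2, which stand in the matrix list too, a domain of 10.2 kb lay inside Pdgfrb, and 6 of the 12 had an end in some H3K27ac peak.

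**Figure D5:**
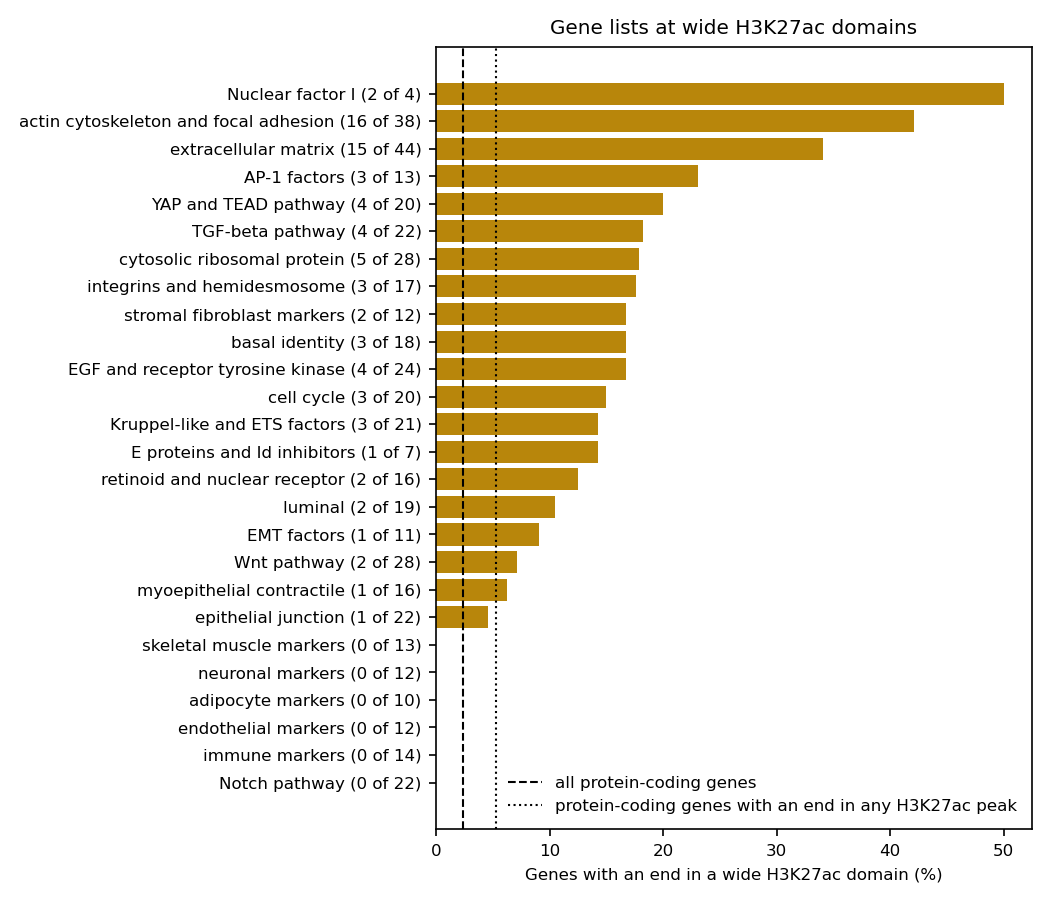
Share of each list's autosomal genes with a gene end in a wide H3K27ac domain (horizontal axis, percent), with the number of genes beside each name. The dashed line is the share of all protein-coding genes (2.41%) and the dotted line that of genes with an end in any H3K27ac peak (5.25%), and the actin and matrix lists stand at 42.1% and 34.1%.

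MicroRNA genes numbered 41 in 30 domains, 3.61% of 1136 autosomal miRNA genes, and 221 (19.5%) lay in some H3K27ac peak. The domain of 58.3 kb on chromosome 15 (85651808 to 85710143) held the let-7b and let-7c-2 hairpins near its right edge, had H3K4me3 over 51.8% of it, and lay 24.8 kb from Ppara. A domain of 23.8 kb on chromosome 17, over Spaca6 and an end of Has1, held the miR-99b, let-7e and miR-125a hairpins. A 20.1 kb domain on chromosome 9 held miR-125b-1 in the host gene Mir100hg. The let-7 seed GAGGUAG was thus carried by 3 hairpins in 2 domains, of 11 autosomal hairpins with it, and the seed CCCUGAG by 2 of 5. The let-7 family is known for repressing growth-promoting messages.

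Both autosomal hairpins with the seed UCACAGU lay in domains. miR-27a, with miR-23a and miR-24-2, lay in a 21.6 kb domain at Zswim4 on chromosome 8, and miR-27b, with miR-23b and miR-24-1, in the 39.2 kb domain in Aopep on chromosome 13. The printed miR-27 sequences share their seed with each other, and the miR-24 sequence is the same from both domains. The miR-29a and miR-29b-1 hairpins, whose products carry AGCACCA and are known to target collagen messages, lay in the 38.9 kb domain on chromosome 6 (31054688 to 31093610), 95.7 kb from the nearest coding gene, Klf14. miR-21a lay in the 49.4 kb Vmp1 domain, and miR-205, an epithelial microRNA, in a 23.1 kb domain at its host gene Mir205hg. The domains of the microRNAs described so far held H3K4me3 and no HEB site, and 87.2% of all wide domains held none. HEB sites did lie in the domains of miR-1191b (the Nfic domain, 2 sites) and miR-3089 (1 site).

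H3K27me3 overlapped 18 domains (2.54%, Wilson interval 1.61 to 3.97), beside 3.45% of all autosomal H3K27ac peaks. The share depended on the settings, at 0.704% (5 domains) with H3K27me3 peaks of −log10 q of 5 or more and 4.72% with a width limit of 15 kb. By base pairs it covered 0.458% of domain sequence and 1.57% of narrower peaks, and 0.383% without the chromosome 9 domain. The highest shares were in the Krt5 domain (64.7%) and the Nkd2 domain (62.4%), followed by the chromosome 9 domain (45.9%), a domain 11.5 kb from Nkd2 (36.9%) and one on chromosome 4 (34.6%). Krt5 encodes a basal keratin, and Nkd2 an inhibitor of Wnt signalling. A domain at Lemd1 with the miR-135b hairpin had 30%. Each list pools cells, so whether both marks lay on the same chromosomes cannot be told apart from a mixture of cells. For the chromosome 9 domain, how uniquely reads map was not tested either. H3K27me3 lay within 10 kb of 10.3% of domains, 12.7% of peaks of 5 to 10 kb and 20.2% of all autosomal peaks.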

How the data were processed

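ChIP-seq of 20 samples (5 groups of 4) was deposited as 4 peak lists, each for a single antibody. The build is mm10, per the submitters' processing notes, and these also list SAMtools (no version). Not given in the sources used here are the aligner, the peak caller, the control and how replicates were combined. Whether peaks were called per sample or on pooled reads is therefore unknown, and nearby peaks joined by the caller would count as 1 domain. The labels call the replicates biological. The HEB list holds positions only. Fold enrichment is a value per peak that the authors deposited, with no unit stated in a header, and is taken here as a ratio over control. The deposited −log10 q-value was used as a filter and to describe the chromosome 9 domain. The deposited −log10 p-value and the deposited score were not used.

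Domains are autosomal H3K27ac peaks whose end minus start is 10000 bp or more. Features overlapped at 1 bp or more, and an HEB site counts towards density by its centre. Coordinates are printed 1-based. Genes came from the RefSeq table of GRCm38.p6, the assembly behind mm10. Python 3.11.15, numpy 2.4.6, pandas 2.3.3, scipy 1.17.1 and matplotlib 3.10.9 were used, and the overlap code was tested on simulated data. Shares have Wilson and densities exact Poisson 95% intervals.

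The members and gene lists were chosen with earlier results of these data known. Named were the 25 widest domains, the domains with 2 or more HEB sites, the 10 widest without H3K4me3, the widest between genes, listed genes with an end in a domain, and the runs with most domains. Histone genes, the microRNAs by seed and the domains with most H3K27me3 were singled out after their values were seen. Alternatives changed the width limit, peak joining, peak thresholds, overlap rule and chromosomes. Those without chromosome ends and without chromosomes 5 and 15 were added after seeing the data. Some genes of the lists are counted but not reported here by name.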

Additional observations from a re-analysis of the deposited data

How the results depend on the processing

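Over 51 alternative values, 34 moved by less than the counting interval or 1.5 times and 17 moved by more. HEB density in the domains stayed between 9.18 and 10 sites per Mb in those run. The number of domains was 1337 at a limit of 8 kb and 233 at 15 kb, against 710. The share with HEB was 16.7% at 15 kb, against 12.8%. The share with H3K4me3 was 62% at 8 kb and 73.4% at 15 kb, and 63.2% with H3K4me3 peaks of −log10 q of 5 or more, 44.1% with those above the median fold and 65.6% with at least 500 bp shared, against 69.9%. The share with H3K27me3 was 4.72% at 15 kb and 0.704% under the same limit on −log10 q, against 2.54%. The share with a gene end was 43.5% at 8 kb, against 49.4%. Coding genes with an end in a domain were 3.87% at 8 kb and 0.828% at 15 kb, and 3.3% with any overlap, against 2.41%. The actin list stood at 57.9% and 23.7% at 8 and 15 kb and the matrix list at 11.4% at 15 kb. The cause of these moves beyond the changed limit was not tested. No paired analysis was possible because each antibody has 1 list with no column per replicate, and for the same reason no replicate could be left out. Read depth is unknown, so a domain without an HEB or H3K4me3 peak may hold signal below the caller's threshold.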
